A study of Mus musculus with 26 samples.

Results

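Leydig cells lie between the seminiferous tubules of the testis and make its androgens. The 33 genes described here are known for their part in Leydig cells and in steroid hormone synthesis, and they were found by gene symbol among the 51124 genes of the deposited table, where each of the 33 symbols matched 1 row. They comprise 4 genes of cholesterol import and storage, 13 enzymes that make, convert or inactivate steroids, 4 genes that pass electrons to those enzymes, 7 receptors or transcription factors and 5 other genes used as Leydig cell genes. Their RNA was measured in whole testes of adult mice, by sequencing of total RNA after depletion of ribosomal RNA. Wild-type mice (libraries N1 and N2) were compared with the knock-in lines *10xPerf* (N3 and N4) and *10xBulge* (N5 and N6), and each library came from a different mouse. Both lines carry 10 binding sites for piR-A, a piRNA of pachytene germ cells, which were placed in the 3′ UTR of a helicase gene of meiotic germ cells, *Ythdc2*. The sites of *10xPerf* pair with the piRNA along its whole length, and those of *10xBulge* have mismatches at positions 10 and 11 of the guide. The lines were founded by injection of B6D2F1/J hybrid embryos and kept by crossing homozygous mice, so a line can also differ from wild-type mice in its share of the parental strains. The labels give neither the exact age of the mice nor the breeding of the wild-type mice. Values are read counts per gene that the authors normalized between libraries with DESeq2, called normalized counts below.

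In Leydig cells, luteinizing hormone acts through its receptor and cyclic AMP to drive steroid synthesis. Cholesterol is taken up or released from stores, carried into mitochondria and cut to pregnenolone by the enzyme of *Cyp11a1*, and the enzymes of the 3-beta-hydroxysteroid dehydrogenases, *Cyp17a1* and *Hsd17b3* then lead to testosterone. The nuclear receptor of *Nr5a1* is known as a regulator of many of these genes. The same cells secrete insulin-like factor 3, the product of *Insl3*, which acts in the descent of the testis before birth.

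The libraries held between 39.8 and 59.8 M normalized counts, or roughly 41.1 to 61.6 M reads, and 3 reads were worth between 2.73 and 3.63 normalized counts. Both *10xBulge* libraries stood apart from the other 4 on a first principal component with 72.7% of the variance. Of 12 spermatid markers, each was lower in *10xBulge* than in wild type (median log2 difference -7.31), and their summed level was 4479 to 8119 against 572394 to 797423. Normalized counts are relative to the other genes of a library, so a higher count and a larger amount of RNA per testis cannot be told apart, and in bulk RNA neither can more Leydig cells and more RNA per cell. Sertoli cell markers (8 of 12 higher, summed level 71801 to 73330 in wild type and 119740 to 261228 in *10xBulge*) and macrophage markers (7 of 10 higher, 4899 to 6396 and 14335 to 20116) moved in the same direction as the genes below, with no marker of either list at 0. Endothelial markers (7 genes, median log2 difference 0.35, summed level 2497 to 3525 and 1879 to 2807) were not called, and of 7 peritubular muscle cell markers, with a summed level of 14300 to 22088 in wild type and 8931 to 16146 in *10xBulge*, 1 was lower (*Actg2*). Among germ cells before the spermatid stage, 2 of 12 spermatocyte markers were lower (median log2 difference -0.22), and 2 of 12 spermatogonium markers were higher and 1 lower (median 0.75). Over all genes tested, 11.4% were called higher and 23.0% lower in *10xBulge* than in wild type. The part of other cell types in the results was not tested.

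Most of the Leydig cell and steroid genes were higher in *10xBulge* testes. Summed over the 33 genes, the level was 99001 and 113221 normalized counts in the wild-type pair, 74723 and 123836 in *10xPerf*, and 432548 and 220484 in *10xBulge*, so that the *10xBulge* mean was 3.08 times that of wild type. Genes that reached 10 normalized counts in 2 or more libraries were tested with limma on log2(value + 1), a scale on which changes of low genes come out too small, and called at a Benjamini-Hochberg adjusted p under 0.1 over 23782 genes. Of the 33, 31 were tested, and all 31 had at least 10 in each of the 6 libraries. *Srd5a2* and *Akr1b7* did not pass the filter. The 8 genes that define Leydig cells here (*Star*, *Cyp11a1*, *Hsd3b1*, *Hsd3b6*, *Cyp17a1*, *Hsd17b3*, *Insl3* and *Lhcgr*) were present in every library, from 402 normalized counts upwards.

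In *10xBulge* against wild type, 18 of the 31 were higher and 1, *Nr4a1*, was lower, where 11.4% of all genes tested were called higher and 23.0% lower. The other 12 did not pass. The median log2 difference of the 31 was 1.18, beside -0.03 over all genes tested. Of the 8 genes that define Leydig cells, 6 were higher, with a median of 1.76 over the 8, and *Star* and *Cyp11a1* did not pass. Both *10xBulge* libraries were above both wild-type libraries for 21 of the 31 and below them for 3, whereas such a separation upwards was found for 28.9% and downwards for 33.2% of all genes tested. In *10xPerf* 6 of the 31 lay above and 6 below both wild-type libraries, beside 20.2% and 19.8% of all genes tested. In that comparison only *Ren1* was called among the 31, and it was higher, with 0.467% of all genes called higher and 0.492% lower. At an unadjusted p under 0.05, 2 of the 31 were higher in *10xPerf* and 0 were lower. Their median there was -0.24, beside 0.02 over all genes. In *10xBulge* against *10xPerf*, 17 were higher and 3 were lower (12.9% and 24.1% of all genes tested), with a median of 1.43 beside -0.07. Both *10xBulge* libraries lay above both *10xPerf* libraries for 23 of the 31 and below them for 3, beside 30.7% and 35.3% of all genes tested. The comparisons share libraries and are not independent of each other.

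**Figure D1:**
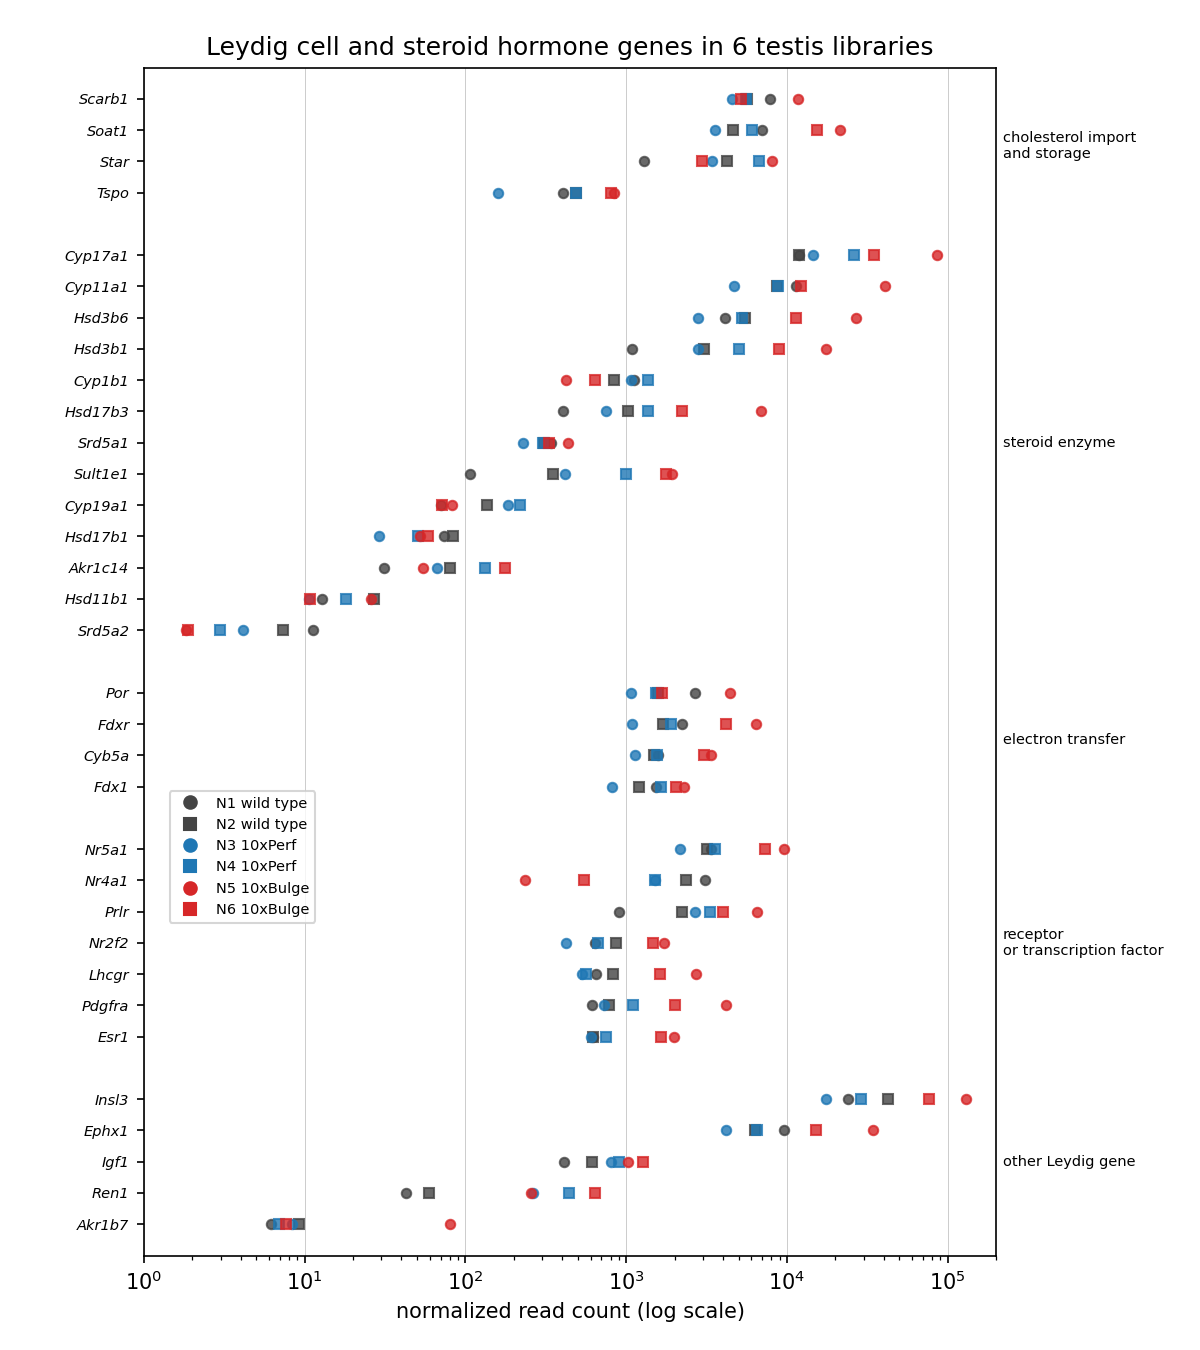
Normalized read count (x axis, log scale) of each of the 33 genes (rows, by role) in 6 testis libraries, with 1 point per library: grey for wild type, blue for *10xPerf*, red for *10xBulge*. The red points lie to the right of the grey points in 21 of the 31 tested genes, and far to their left for *Nr4a1* (236 and 546 against 3084 and 2373).

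The mice of a line also differed from each other. N5 exceeded N6 in 25 of the 31 tested genes, by a median of 0.47 on the log2 scale (0.15 over all genes), and by at least 1 on that scale in 10 genes. Between the *10xPerf* libraries, N3 exceeded N4 in 1 of the 31 (median -0.72 for N3 against N4, beside -0.08 over all genes). N1 exceeded N2 in 12 of the 31 (median -0.28). The ratio between the libraries of a genotype was also related to GC content across 12426 genes, which are not independent replicates. Spearman's rho was 0.518 for N5 to N6, 0.615 for N1 to N2 and -0.242 for N3 to N4. With the GC trend removed from each library, 18 of the 31 were called higher and 2 lower in *10xBulge* than in wild-type testes, where 16.5% of all genes tested were called higher and 26.0% lower. The median log2 difference of the 31 was then 1.38. Against *10xPerf*, 17 were then higher and 3 lower, beside 16.4% and 27.1% of all genes tested, with a median of 1.18. *Tspo* did not pass there (limma adjusted p = 0.106).

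Among the cholesterol genes, only *Soat1* was called in *10xBulge* against wild type, 1 of 4, where 11.4% of all genes tested were called higher. *Soat1* (ENSMUSG00000026600.13) encodes the acyltransferase that stores cholesterol as esters. It had 7012 and 4650 normalized counts in wild-type testes, 3559 and 6092 in *10xPerf*, and 21292 and 15424 in *10xBulge*. Both *10xBulge* values were above all 4 others. The rise was 3.17-fold (log2 difference 1.67, standard error 0.45, limma adjusted p = 0.0244), and without N2 the adjusted p was 0.126. *Star*, whose product moves cholesterol to the inner mitochondrial membrane and is the acute, hormone-regulated step of the pathway, did not pass the test. Its levels were 1284 and 4225 in N1 and N2, 3440 and 6714 in *10xPerf*, and 8128 and 2977 in *10xBulge*. The genotypes overlapped, with N6 below N2 and below both *10xPerf* libraries. The log2 difference of *Star* to wild type was 1.08 in *10xBulge* (limma adjusted p = 0.275, 95% confidence interval -0.46 to 2.61) and 1.04 in *10xPerf* (adjusted p = 0.853).

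*Scarb1* encodes the receptor that takes cholesterol esters from high-density lipoprotein. Its 6 libraries ranged from 4566 to 11750, and the log2 difference of *10xBulge* to wild type was 0.23 (adjusted p = 0.764), which turned to -0.36 without N5. *Tspo*, a protein of the outer mitochondrial membrane, was at 402 and 489 in wild type and 835 and 804 in *10xBulge*, without overlap, and did not pass the test against wild type (log2 difference 0.88, limma adjusted p = 0.258). It did against *10xPerf*, where N3 was at 160 and N4 at 489 (log2 difference 1.55, limma adjusted p = 0.0595). That call was lost without N1, N2, N3 or N5, at an adjusted p of 0.111 to 0.394.

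Of the 13 steroid enzyme genes 12 were tested. In *10xBulge* over wild type 5 of the 12 rose, beside 11.4% of all genes tested: *Hsd3b1*, *Hsd3b6*, *Cyp17a1*, *Hsd17b3* and *Sult1e1*. None was called lower by limma (23.0% of all genes tested were), also at an unadjusted p under 0.05 (0 of 12). The first 4 lie on the route from pregnenolone to testosterone, and *Sult1e1* encodes the sulfotransferase that inactivates estrogens. Summed over the 13 genes, the levels were 30509 and 31928 in the wild-type mice, 27565 and 49847 in *10xPerf*, and 181237 and 72836 in *10xBulge*.

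*Cyp17a1* (ENSMUSG00000003555.9) encodes the enzyme that turns progesterone-type steroids into androgen precursors. It had 11809 and 11888 normalized counts in the wild-type pair, 14479 and 26306 in *10xPerf*, and 86000 and 34939 in *10xBulge*. The genotypes did not overlap, with *10xPerf* between the other genotypes. Against wild type *10xBulge* was 4.63-fold higher (log2 difference 2.21, standard error 0.54, limma adjusted p = 0.0151), and *10xPerf* had a log2 difference of 0.72 (adjusted p = 0.853). Without N1 the adjusted p in *10xBulge* was 0.11. *Hsd17b3* (ENSMUSG00000033122.15), the gene of the last step to testosterone, stood at 402 and 1020 in wild-type testes, 748 and 1374 in *10xPerf*, and 6862 and 2241 in *10xBulge*. Again both *10xBulge* libraries were the highest. The log2 difference to wild type was 2.61 (standard error 0.64, limma adjusted p = 0.0163), and the adjusted p was 0.171 without N1.

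The 3-beta-hydroxysteroid dehydrogenases were represented by a pair of genes from the same cluster on chromosome 3. *Hsd3b1* (ENSMUSG00000027871.17, chr3:98852194-98859794 on GRCm38, minus strand) had 1091 and 3048 normalized counts in N1 and N2, 2815 and 5030 in *10xPerf*, and 17578 and 8935 in *10xBulge*. *Hsd3b6* (ENSMUSG00000027869.15, chr3:98805504-98814443, minus strand), the form known from adult Leydig cells, had 4098 and 5499, 2789 and 5287, and 26803 and 11437. For both genes, wild type and *10xPerf* overlapped and *10xBulge* stood above them. The log2 difference of *10xBulge* to wild type was 2.78 for *Hsd3b1* (standard error 0.59, limma adjusted p = 0.00745), a 6.87-fold rise. For *Hsd3b6* it was 1.88 (standard error 0.53, limma adjusted p = 0.0282), a 3.69-fold rise, and it missed the threshold without N1 (log2 difference 1.67, adjusted p = 0.181) or N5 (1.27, adjusted p = 0.114). The ratio of *Hsd3b6* to *Hsd3b1* counts was 3.75 and 1.8 in the wild-type mice, 0.991 and 1.05 in *10xPerf*, and 1.52 and 1.28 in *10xBulge*. It was thus highest in wild type, with most of the spread there. Of the 100-base windows of *Hsd3b6*, 3.11% also occurred in another gene, and of *Hsd3b1* 0%. The further pathway genes below held *Hsd3b2*, also on chromosome 3, and *Hsd3b7*. *Hsd3b2* overlapped between *10xBulge* and wild type (log2 difference -0.40, limma adjusted p = 0.67). *Hsd3b7* was higher in *10xBulge* (1.10, limma adjusted p = 0.0831).

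*Sult1e1* (ENSMUSG00000029272.9) had the largest log2 difference among the 31 in *10xBulge* against wild type. Its levels were 107 and 353 normalized counts in the wild-type pair, 415 and 991 in *10xPerf*, and 1930 and 1764 in *10xBulge*. The 3 genotypes formed separate steps, and the *10xBulge* mice were close to each other. The rise to *10xBulge* was 9.42-fold (log2 difference 3.24, standard error 0.62, limma adjusted p = 0.00431), and that to *10xPerf* was 1.71 on the log2 scale (limma adjusted p = 0.635). Leaving out a single library kept the *10xBulge* difference between 2.38 and 4.09.

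*Cyp11a1* (ENSMUSG00000032323.14), the gene of the first enzyme of the pathway, had 11343 and 8635 normalized counts in wild-type testes, 4715 and 8754 in *10xPerf*, and 40991 and 12229 in *10xBulge*. N6 was only just above N1. The difference did not pass against wild type (log2 difference 1.18, 95% confidence interval -0.18 to 2.54, limma adjusted p = 0.183), and it was 0.31 without N5 and 2.05 without N6 (adjusted p = 0.0141). Against *10xPerf* it was called (1.80, limma adjusted p = 0.0525), yet not without N1, N2, N3, N4 or N5 (adjusted p of 0.104 to 0.375). The ratio of *Cyp11a1* to *Star* was 8.84 and 2.04 in N1 and N2, 1.37 and 1.3 in *10xPerf*, and 5.04 and 4.11 in *10xBulge*, so it overlapped between wild type and *10xBulge*.

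The remaining enzymes did not pass the test in *10xBulge* against wild type. *Cyp1b1*, which hydroxylates estrogens, had 1116 and 841 in the wild-type mice, 1079 and 1376 in *10xPerf*, and 422 and 643 in *10xBulge*. The *10xBulge* libraries were the lowest, with a log2 difference of -0.89 to wild type (limma adjusted p = 0.145) and -1.23 to *10xPerf* (limma adjusted p = 0.0541, and 0.173, 0.226 and 0.202 without N3, N4 and N5). *Cyp19a1*, the aromatase gene, was at 70.1 and 136 in the wild-type pair, 183 and 219 in *10xPerf*, and 82.6 and 71.8 in *10xBulge*. It was lower in *10xBulge* than in *10xPerf* (log2 difference -1.37, limma adjusted p = 0.0626), a call lost without N3, N4 or N6 (0.217, 0.238 and 0.119), while wild type and *10xBulge* overlapped. *Hsd17b1*, *Srd5a1*, *Akr1c14* and *Hsd11b1* had log2 differences of -0.50, 0.22, 0.95 and -0.15 between *10xBulge* and wild type, each with an adjusted p of 0.359 or more. *Akr1c14* and *Srd5a1*, which act in the conversion of testosterone to other androgens and are prominent in immature Leydig cells, were at 31.1 to 175 and 229 to 436 over all libraries. In *Srd5a1*, 13.58% of the 100-base windows occurred in another gene as well. *Srd5a2*, the other 5-alpha-reductase, was at 7.37 to 11.2 in wild type and at 1.82 and 1.88 in *10xBulge*, values under the worth of 3 reads there.

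Per kilobase of the longest annotated transcript, *Cyp17a1* led these enzymes in wild type (4931 normalized counts per kb). *Cyp11a1* (2905), *Hsd3b6* (2663) and *Hsd3b1* (1116) followed, and the order ended with *Hsd11b1* (10.1) and *Srd5a2* (5.79). *Cyp11a1* and *Hsd3b6* overlapped between the wild-type mice, and which transcripts were expressed was not tested. In *10xBulge* *Cyp17a1* still led, at 25164 per kb, with *Hsd3b6* at 10610, *Cyp11a1* at 7738 and *Hsd3b1* at 7146. The last 3 overlapped between the *10xBulge* mice.

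Electron transfer proteins feed the cytochrome P450 enzymes. Of their 4 genes, 2 were called higher in *10xBulge* than in wild type, beside 11.4% of all genes tested. *Fdxr*, the ferredoxin reductase of the mitochondrial chain that serves *Cyp11a1*, had 2224 and 1696 normalized counts in wild-type testes, 1084 and 1906 in *10xPerf*, and 6401 and 4207 in *10xBulge*. *Cyb5a*, a cytochrome that promotes the androgen-forming reaction of the *Cyp17a1* enzyme, had 1571 and 1495, 1130 and 1547, and 3379 and 3039. In both genes the *10xBulge* libraries were above the other 4. *Fdxr* rose 2.67-fold (log2 difference 1.42, standard error 0.44, limma adjusted p = 0.0443), a call that was lost without N1, N2 or N5 (0.115, 0.168 and 0.154). *Cyb5a* rose 2.09-fold (log2 difference 1.06, standard error 0.38, limma adjusted p = 0.0697), and its adjusted p was between 0.103 and 0.166 when any of the 6 libraries was left out. *Fdx1*, the ferredoxin itself, did not pass (log2 difference 0.67, limma adjusted p = 0.297), although its *10xBulge* levels of 2289 and 2029 exceeded the wild-type levels of 1529 and 1196. *Por*, the reductase that serves microsomal enzymes such as that of *Cyp17a1*, was at 2686 and 1578 in wild type and 4450 and 1672 in *10xBulge*, and overlapped (log2 difference 0.41, adjusted p = 0.619). Without N5 its sign turned, to -0.30.

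**Figure D2:**
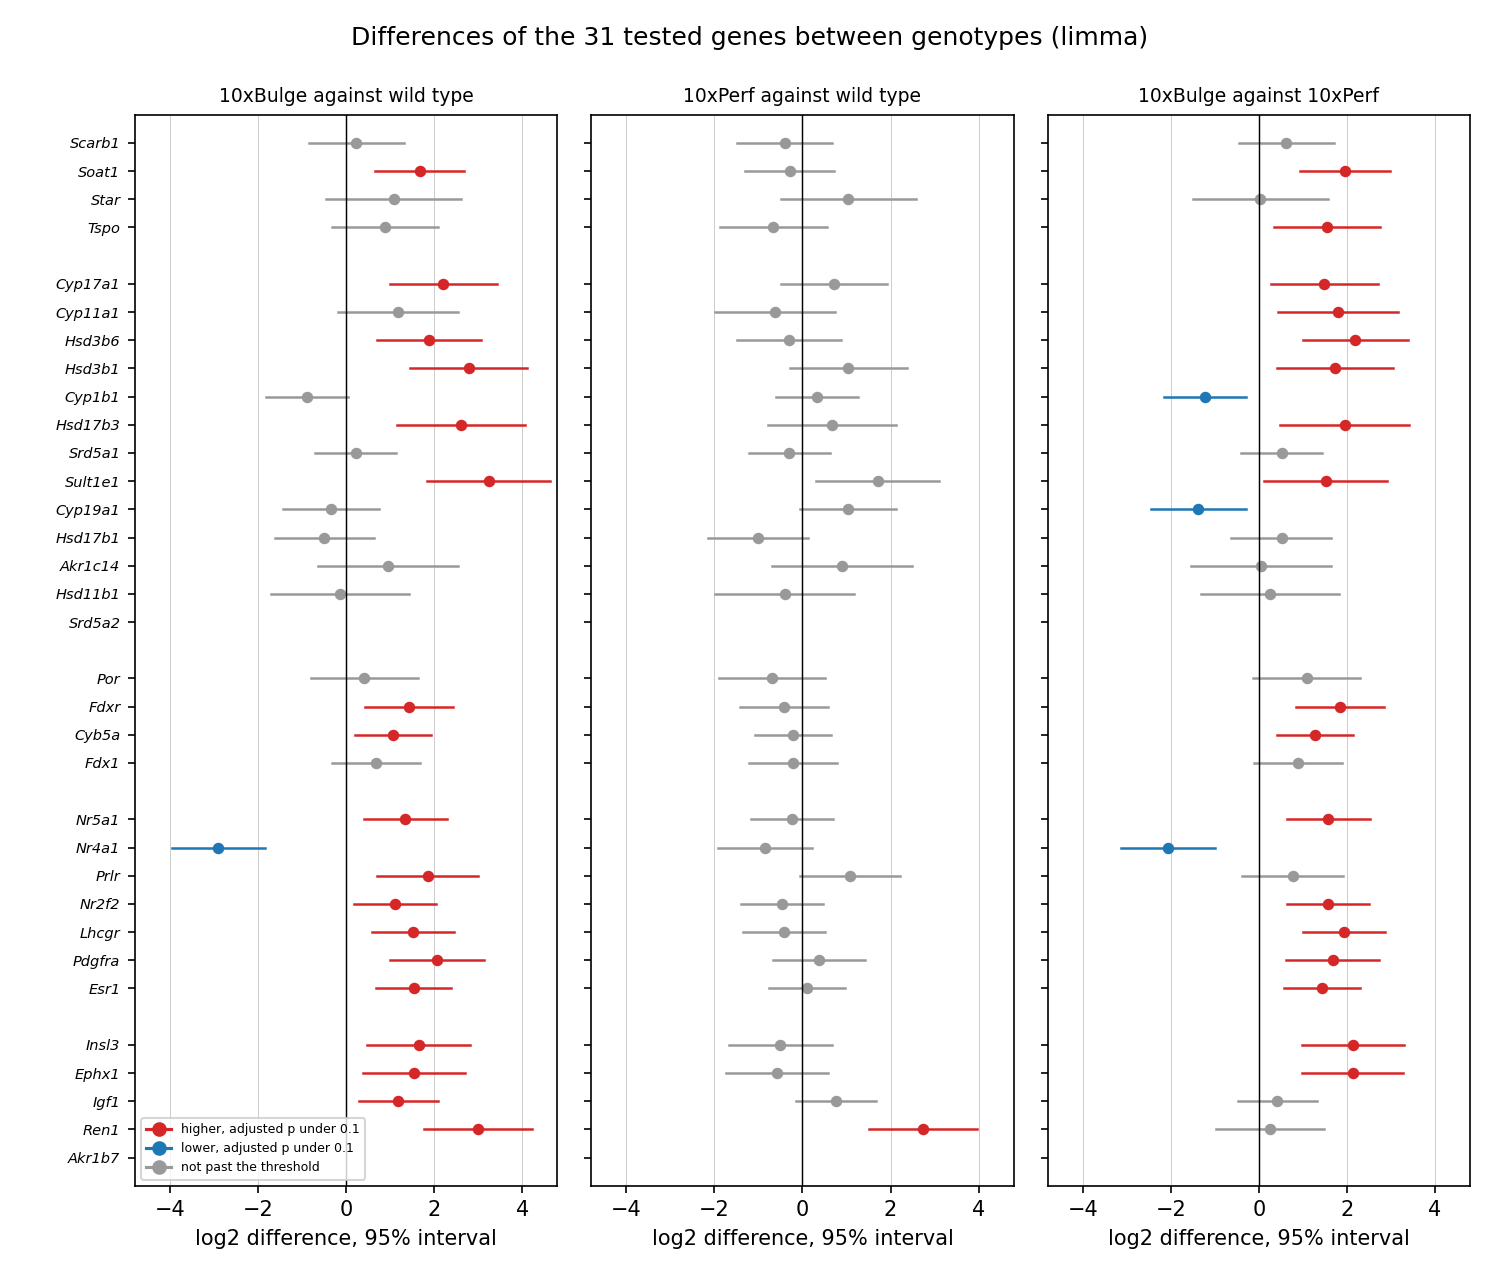
Log2 difference (x axis) of the 31 tested genes in 3 comparisons (panels), with dots for the limma estimate and lines for its 95% confidence interval. Red marks genes called higher and blue genes called lower at an adjusted p under 0.1, which gives 18 and 1 in *10xBulge* against wild type, 1 and 0 in *10xPerf* against wild type, and 17 and 3 in *10xBulge* against *10xPerf*.

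All 7 receptors and transcription factors were called in *10xBulge* against wild type, 6 higher and 1 lower, beside 11.4% and 23.0% of all genes tested. The libraries of these genotypes overlapped for none of the 7, and of all genes tested 28.9% were separated upwards and 33.2% downwards. In *10xPerf* against wild type 0 of the 7 were called by limma, also at an unadjusted p under 0.05. *Lhcgr* (ENSMUSG00000024107.8), the receptor of luteinizing hormone, had 649 and 827 normalized counts in N1 and N2, 530 and 565 in *10xPerf*, and 2703 and 1624 in *10xBulge*. The rise over wild type was 2.86-fold (log2 difference 1.52, standard error 0.41, limma adjusted p = 0.0255). It missed the threshold without N1 (log2 difference 1.34, limma adjusted p = 0.139) or N5 (1.15, adjusted p = 0.111). Over *10xPerf* it was 1.93 on the log2 scale (limma adjusted p = 0.00744), and *Lhcgr* was the gene of the 31 that passed that comparison without N3 (adjusted p = 0.0855).

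*Pdgfra*, a growth factor receptor of Leydig cells and their precursors, had 611 and 780 normalized counts in the wild-type mice, 731 and 1098 in *10xPerf*, and 4159 and 1999 in *10xBulge* (log2 difference of *10xBulge* to wild type 2.06, standard error 0.47, limma adjusted p = 0.0109). *Prlr*, the prolactin receptor, had 902 and 2213, 2694 and 3307, and 6537 and 3994 (1.85, limma adjusted p = 0.0256). *Esr1*, the estrogen receptor alpha, had 619 and 623, 600 and 744, and 1975 and 1648 (1.54, limma adjusted p = 0.0161). *Prlr* was the exception among these, since both of its *10xPerf* libraries also lay above wild type (log2 difference 1.08, adjusted p = 0.853) and *10xBulge* did not pass against *10xPerf* (0.78, adjusted p = 0.287). *Prlr* lost its call against wild type without N1 (log2 difference 1.21, adjusted p = 0.169). *Nr2f2*, an orphan nuclear receptor of interstitial cells, had 636 and 859, 425 and 671, and 1708 and 1477 (1.10, limma adjusted p = 0.0812). Its adjusted p was between 0.108 and 0.285 when any of the 6 libraries was left out.

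The nuclear receptors *Nr5a1* and *Nr4a1* went in opposite directions. Each is known to activate steroid enzyme genes, and *Nr4a1* is an immediate early gene induced by luteinizing hormone. *Nr5a1* (ENSMUSG00000026751.15, chr2:38692656-38714542 on GRCm38, minus strand) had 3384 and 3206 normalized counts in the wild-type pair, 2167 and 3579 in *10xPerf*, and 9589 and 7261 in *10xBulge*. The 2.53-fold rise in *10xBulge* over wild type (log2 difference 1.34, standard error 0.41, limma adjusted p = 0.0422) missed the threshold without N1, N2 or N5 (adjusted p = 0.136, 0.123 and 0.127), where the log2 difference was 1.38, 1.30 and 1.14. *Nr4a1* (ENSMUSG00000023034.8, chr15:101254269-101274795, plus strand) had 3084 and 2373 in wild-type testes, 1508 and 1502 in *10xPerf*, and 236 and 546 in *10xBulge*. The genotypes formed 3 separate steps downwards. In *10xBulge* it was 7.52-fold lower than in wild type (log2 difference -2.91, standard error 0.47, limma adjusted p = 0.00153), between -3.51 and -2.31 when a library was left out. The difference of *10xPerf* to wild type was -0.85 (limma adjusted p = 0.853), and that of *10xBulge* to *10xPerf* was -2.06 (limma adjusted p = 0.0104, and 0.112 without N3). The ratio of *Nr5a1* to *Nr4a1* counts was 1.1 and 1.35 in N1 and N2, 1.44 and 2.38 in *10xPerf*, and 40.7 and 13.3 in *10xBulge*, a separation that needs no scaling between libraries. *Nr4a1* is also expressed outside Leydig cells, and the cells behind its fall cannot be told apart in whole testis.

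Receptors of the *Nr5a1* and *Nr4a1* families share the motif AGGTCA in the sites they are known to bind, and the promoters of the listed genes were searched for it. RefSeq windows from 250 bases before to 50 bases after a gene's start (GRCm38.p6) were present for 26 of the 33 genes and absent for *Tspo*, *Hsd17b1*, *Cyp17a1*, *Star*, *Scarb1*, *Nr5a1* and *Cyb5a*. AGGTCA, on either strand, was found in 6 of 32 windows (18.8%), and in 16.3% of all 32851 windows. The longer AAGGTCA, which contains it, was in 6.25% and 4.72%. With 1 more base, CAAGGTCA was in 0% and 1.56%, and AAAGGTCA in 3.12% and 1.51%. The AGGTCA matches of *Cyp11a1*, *Lhcgr*, *Sult1e1* and *Igf1* are shown because they lie at the first enzyme, the hormone receptor and called genes. Among these only that of *Sult1e1* extends to AAGGTCA. The motif or its reverse complement is in capitals, on the strand of the gene, 5′ to 3′. The windows lie at chr9:58014914-58014939 (plus strand), chr17:88792121-88792146 (minus), chr5:87591709-87591734 (minus) and chr10:87860940-87860965 (plus).
Cyp11a1: ggaaggggggAGGTCAccgctccatc
Lhcgr: ccacagtcccAGGTCAaggagaacag
Sult1e1: tgagcaaactTGACCTtatgactaaa
Igf1: cagggaagagAGGTCAgctgcctaga
A match of letters is a description, not a bound site. *Cyp19a1* and *Akr1b7* also held the motif. The match of *Akr1b7*, a gene that did not pass the expression filter, is the one that extends to AAAGGTCA.

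The 5 other Leydig cell genes included the most abundant. *Insl3* (ENSMUSG00000079019.3, chr8:71689214-71690575 on GRCm38, plus strand) had 23936 and 42337 normalized counts in the wild-type mice, 17425 and 29099 in *10xPerf*, and 130172 and 76579 in *10xBulge*. Per kilobase it was the highest of the 33 in wild type, at 53188. Both *10xBulge* libraries were above all others, and the rise was 3.14-fold (log2 difference 1.65, standard error 0.52, limma adjusted p = 0.0446). Leaving out N1, N3, N4 or N5 took the adjusted p to 0.251, 0.109, 0.116 and 0.117. *Insl3* lies within the annotated span of *Jak3* (chr8:71676296-71690575) on the same strand, and 58.21% of its 100-base windows also occur in *Jak3*, so salmon had to divide such reads. *Jak3* was at 505 to 653 in wild type and *10xPerf* and at 1214 and 807 in *10xBulge* (adjusted p = 0.202), from 0.00933 to 0.029 of the *Insl3* count in each library.

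*Ephx1*, the microsomal epoxide hydrolase gene, had 9647 and 6377 normalized counts in the wild-type pair, 4171 and 6563 in *10xPerf*, and 34337 and 15235 in *10xBulge*. *Igf1*, a growth factor that acts on Leydig cells, had 412 and 617, 802 and 907, and 1033 and 1264. For *Igf1* both lines were thus above wild type, and for *Ephx1* only *10xBulge* was. The log2 difference of *10xBulge* to wild type was 1.54 for *Ephx1* (limma adjusted p = 0.0537). It was 1.18 for *Igf1* (limma adjusted p = 0.0593). *Ephx1* passed only without N6 among the fits with 1 library left out (adjusted p = 0.0104, otherwise 0.119 to 0.229), and *Igf1* only without N2 (0.0637) or N5 (0.0799, otherwise 0.113 to 0.234).

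*Ren1* was called in both lines against wild type. It encodes renin, which cleaves angiotensinogen and is made in mouse Leydig cells as well as in the kidney. *Ren1* (ENSMUSG00000070645.6, chr1:133350510-133360325 on GRCm38, plus strand) had 42.6 and 59.4 normalized counts in wild-type testes, 264 and 440 in *10xPerf*, and 257 and 644 in *10xBulge*. All 4 knock-in libraries were above both wild-type libraries, and the lines overlapped. The rise was 6.66-fold in *10xPerf* (log2 difference 2.74, standard error 0.55, limma adjusted p = 0.0824) and 7.95-fold in *10xBulge* (2.99, standard error 0.55, limma adjusted p = 0.00322). The lines differed from each other by 0.25 (95% confidence interval -0.98 to 1.49, limma adjusted p = 0.765). The *10xPerf* call was lost in 6 of 10 other settings and without N1, N2, N3 or N4 (adjusted p of 0.404 to 0.891), while the log2 difference itself stayed between 2.37 and 3.10. In *10xBulge* the adjusted p was at most 0.0597 with any library left out. Mouse strains are known to differ in their number of renin genes, and DBA/2, a parent of B6D2F1/J, carries a copy that C57BL/6 lacks. None of the 100-base windows of *Ren1* occurred in another gene of the GRCm38 annotation, a C57BL/6 genome, and reads of that further copy and of *Ren1* cannot be told apart here.

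*Akr1b7*, an aldose reductase-like gene of steroid-making tissues, was at 6.18 to 9.25 normalized counts in 5 libraries and at 79.9 in N5. The summed level of 6 fat markers was 2715 in N5 and 380 to 1097 in the other 5 libraries. In *10xBulge* against wild type 0 of the 6 were called higher and 1, *Adipoq*, was lower (212 in N5 and 11.4 in N6 against 360 and 444), and 3 of the 6 had a log2 difference above 0. *Cfd* was at 0 in N3. The part of fat in the value of *Akr1b7* was not tested. Epididymis markers stayed at a summed level of 148 to 262 in all 6 libraries, and 8 of the 9 were under 10 in each.

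**Figure D3:**
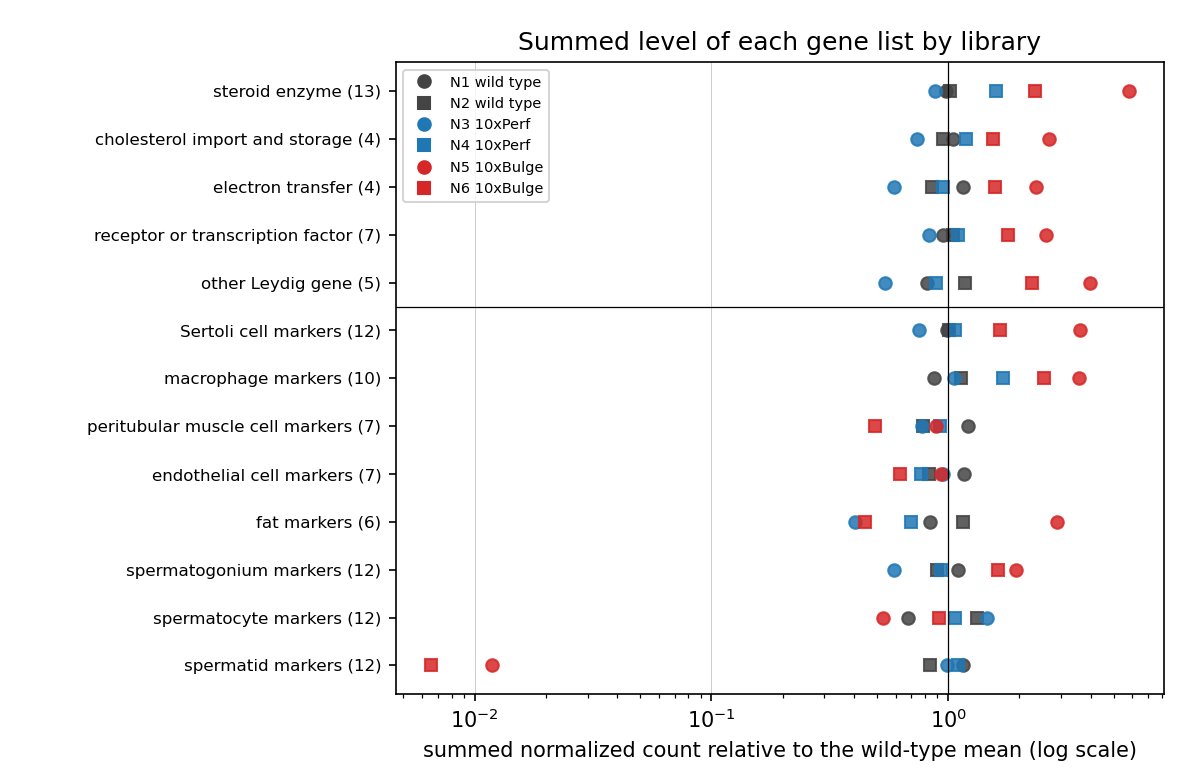
Summed normalized count of each gene list relative to the wild-type mean (x axis, log scale), with 1 point per library: grey for wild type, blue for *10xPerf*, red for *10xBulge*, and the number of genes in brackets. The 5 groups of Leydig and steroid genes (above the line) lie between 1.55 and 5.81 in *10xBulge*, Sertoli and macrophage markers between 1.65 and 3.60, and spermatid markers at 0.0119 and 0.00654.

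How far the calls hold with fewer mice was read from fits with 1 library left out. Each such fit also takes a library from the estimate of the spread, so a lost call does not show that it rests on 1 mouse. The log2 difference of *Cyp17a1* to wild type stayed at 2.21 without N1, and that of *Nr4a1* to *10xPerf* at -2.06 without N3. *Hsd3b1*, *Sult1e1*, *Pdgfra*, *Esr1*, *Nr4a1* and *Ren1* passed in *10xBulge* against wild type in each of the 6 such fits. The highest adjusted p among these fits was 0.0891 for *Hsd3b1*, 0.0569 for *Sult1e1*, 0.0996 for *Pdgfra*, 0.0733 for *Esr1*, 0.0342 for *Nr4a1* and 0.0597 for *Ren1*. The other 13 lost their call in at least 1. *Cyb5a* and *Nr2f2* lost it in all 6, also when a *10xPerf* library was left out, which leaves their own values as they are and takes a library from the estimate of the spread. Without N1, 6 genes were called higher in place of 18 (2.67% of all genes tested), and without N5 11 were (7.19%). The calls in *10xBulge* against *10xPerf* depended on N3, without which 1 gene was higher in place of 17 (1.76% of all genes tested) and 0 were lower in place of 3 (15.7%), and without N5 10 were higher (6.66%).

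**Figure D4:**
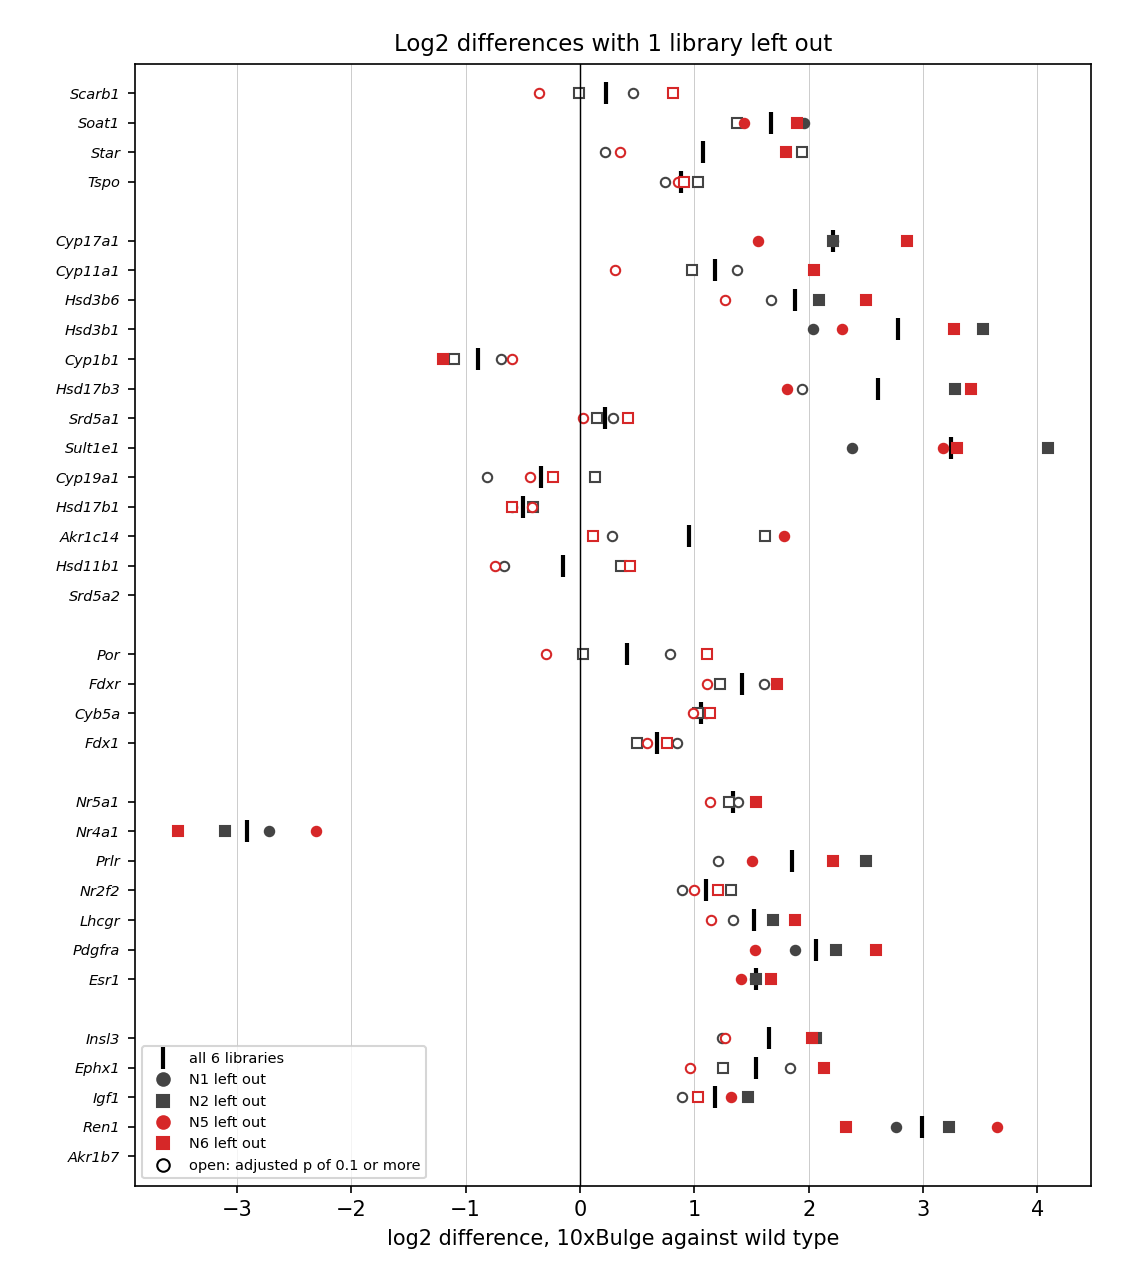
Log2 difference of *10xBulge* to wild type (x axis) for the 31 tested genes with all 6 libraries (black bar) and with N1, N2, N5 or N6 left out (symbols, open where the adjusted p was 0.1 or more). *Nr4a1* stays between -3.51 and -2.31, while *Cyp11a1* moves from 0.31 without N5 to 2.05 without N6.

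A list of 54 further genes of the pathway held 50 tested genes. In *10xBulge* against wild type 19 were higher and 4 lower, where 11.4% of all genes tested were called higher and 23.0% lower. The median log2 difference of the 50 was 0.80, beside -0.03 over all genes tested. In *10xPerf* against wild type 0 of the 50 were called by limma, and 1 was lower at an unadjusted p under 0.05. In *10xBulge* against *10xPerf* 25 were higher and 4 lower, beside 12.9% and 24.1% of all genes tested. Enzymes of steroid metabolism and proteins of cholesterol transfer made up 11 of the 19 that were higher, of 19 tested. Those with the smallest p were *Cyp21a1*, *Hsd17b11* and *Hsd17b12*. *Cyp21a1*, a steroid 21-hydroxylase gene known from the adrenal cortex, had 183 and 132 normalized counts in N1 and N2, 72.9 and 81.7 in *10xPerf*, and 1710 and 696 in *10xBulge* (log2 difference to wild type 2.80, standard error 0.51, limma adjusted p = 0.00317). *Hsd17b11* rose to 2952 and 1691 from 287 and 499 (2.56, limma adjusted p = 0.00475). *Hsd17b12* rose to 4019 and 3387 from 707 and 1012 (2.12, limma adjusted p = 0.00669). The *10xBulge* libraries of all 3 lay above the other 4. Other adrenal genes were at or near 0: *Cyp11b1* was at 0 in all 6 libraries, *Cyp11b2* was at 1.21 in N1 and 0 in the others, and *Mc2r*, the corticotropin receptor gene, was at 0 to 2.78.

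The genes that fell in this list included *Lipe*, *Ace* and *Pdgfa*. *Lipe*, the hormone-sensitive lipase that frees stored cholesterol and fatty acids, went from 20695 and 16763 normalized counts in wild type to 1692 and 933 in *10xBulge* (log2 difference -3.89, limma adjusted p = 0.000135). *Ace*, which makes angiotensin II, went from 54589 and 32854 to 3532 and 1531 (-4.19, limma adjusted p = 0.000247). Both genes are known to have transcripts particular to germ cells, and they fell together with the 12 spermatid markers; the forms were not separated here. Among other regulators 3 of 15 were higher (*Gata4*, *Nr0b1* and *Cebpb*) and 0 were lower by limma, beside 11.4% and 23.0% of all genes tested. At an unadjusted p under 0.05, 1 of the 15 was lower. *Nr4a2* and *Nr4a3*, the relatives of *Nr4a1*, had log2 differences of -1.61 and -1.06 to wild type (limma adjusted p = 0.108 and 0.156), with both *10xBulge* libraries below both wild-type libraries.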

How the data were processed

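RNA-seq libraries of whole testes from 6 mice were used, 2 each of wild type, *10xPerf* and *10xBulge*, grouped by the genotype in the labels. The other 20 samples of the series are immunoprecipitation libraries and are not analysed here. The authors prepared stranded total RNA libraries after depletion of ribosomal RNA and read single ends, assigned reads to GRCm39 Ensembl transcripts with salmon and its GC correction, and deposited read counts per gene normalized with DESeq2, a signal for each gene in each library that holds fractions of reads. Of genes above 0, 19.4% were whole multiples of 1 step in every library (tolerance 0.01 of a read), so reads were not recovered and no count test was run. The authors' mean over the libraries was not needed. The log2 fold changes and adjusted p-values of each line against wild type that the authors deposited were not used.

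Genes reaching 10 in 2 or more libraries (23782) were fitted as log2(value + 1) in limma 3.58.1 (R 4.3.3), with a term per genotype, a mean-variance trend, 1 estimate of the spread over all 6 libraries and Benjamini-Hochberg adjustment. The threshold of 0.1 follows the study. With 2 against 2, an exact two-sided permutation test cannot give a p below 0.33. The members and lists were chosen with earlier results of these data known, so lists have counts and medians and no p. Given in each library are the members called against wild type and 9 key members whatever they showed; of the further pathway genes, up to 3 called per direction with the smallest p. Other genes named, such as *Jak3* and the immediate early genes, were chosen after their values were seen. Some genes of the further pathway lists are counted but not reported here by name.

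Gene spans, transcript lengths, GC content (23614 tested genes), shared 100-base windows and promoter windows came from GRCm38 annotation, matched by gene ID or symbol, and no coordinate was converted. Python 3.11.15, pandas 2.3.3 and matplotlib 3.10.9 made the tables and plots. Alternatives were scaling by library totals or upper quartile, filters of 1 in 1 library and of 10 in every library, fits of 2 genotypes, pseudocounts of 0.1 and 10, a threshold of 0.05, no trend, removal of the GC trend (loess span 0.3), and leaving out each library.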

Additional observations from a re-analysis of the deposited data

How the results depend on the processing

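No paired analysis was possible because the labels give the libraries of each genotype different numbers (N1 to N6) and different mice. Scaling by library totals moved the median of all genes to 0.15 in *10xPerf* and 0.36 in *10xBulge* against wild type and to 0.18 in *10xBulge* against *10xPerf*, and the share of higher calls among all calls from 33.2% to 55.0% in *10xBulge* against wild type. For the Leydig and steroid genes it moved the *10xBulge* median from 1.18 to 1.56, lowered the count of lower genes against *10xPerf* from 3 to 1, and turned *Cyp19a1* to 0.04 (0.0397) and *Hsd11b1* to 0.21. The call of *Ren1* in *10xPerf* (1 gene) became 0 with library totals, upper quartile, a filter of 1 in 1 library, pseudocount 0.1, a threshold of 0.05 or no trend. The filter of 1 in 1 library and removal of the GC trend raised the count of lower genes from 1 to 2 in *10xBulge* against wild type. A threshold of 0.05 left 14 of 18 higher in *10xBulge* against wild type (5.76% of all genes), and 11 of 17 higher and 1 of 3 lower against *10xPerf* (7.25% and 20.5%). Fits of the 2 genotypes alone left 13 higher against wild type (6.36% of all genes; *Cyb5a*, *Nr2f2*, *Insl3*, *Igf1* and *Ephx1* did not pass) and 14 against *10xPerf* (11.4%; *Cyp11a1*, *Cyp17a1* and *Tspo* did not pass). Upper quartile scaling turned *Star* in that comparison to -0.0784, and removal of the GC trend turned *Ren1* to -0.0716.

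With 1 library left out, the count of higher genes ranged from 0 to 1 in *10xPerf* against wild type, from 6 (without N1) to 17 in *10xBulge* against wild type and from 1 (without N3) to 18 in *10xBulge* against *10xPerf*, and the counts of lower genes were 1 to 2 in *10xBulge* against wild type and 0 to 3 against *10xPerf*. The medians ranged from -0.50 to 0.14 (without N3), from 1.11 to 1.67 (without N6) and from 0.90 (without N3) to 1.59. A sign turned for *Scarb1* (range -0.36 to 0.81, -0.00516 without N2 and lowest without N5), *Cyp19a1* (-0.81 to 0.13, highest without N2), *Hsd11b1* (-0.74 to 0.44, 0.36 without N2 and highest without N6) and *Por* (-0.30 without N5 to 1.11) against wild type, and for *Star* (-0.69 without N5 to 0.76, -0.45 without N3) and *Ren1* (-0.41 without N6 to 0.92, -0.11 without N3) against *10xPerf*. Where 1 library remains in a genotype it is assumed to vary like the others. The causes were not tested. Each genotype had 2 mice, and a gene that did not pass can still differ by any amount within its confidence interval.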

Other observations

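Signals between Sertoli, germ and Leydig cells were measured in the same libraries. Of 16 such genes tested, 5 were higher and 3 lower in *10xBulge* against wild type, beside 11.4% and 23.0% of all genes tested. The 5 included *Ptch1*, *Amh*, *Igf1r* and *Agt*. *Agt*, the gene of angiotensinogen, the substrate of renin, had 23319 and 20167 normalized counts in wild-type testes, 15149 and 23987 in *10xPerf*, and 83499 and 55584 in *10xBulge* (log2 difference of *10xBulge* to wild type 1.65, limma adjusted p = 0.0262). Unlike for *Ren1*, the *10xPerf* libraries overlapped with wild type. *Ptch1*, the hedgehog receptor that is itself a hedgehog target, had 1729 and 1058 in wild type and 4238 and 2843 in *10xBulge* (1.36, limma adjusted p = 0.0437). *Dhh*, the hedgehog signal that Sertoli cells send, did not pass against wild type (0.80, limma adjusted p = 0.166). *Pdgfa*, a ligand of the *Pdgfra* receptor, was at 970 and 557 in wild type and 309 and 225 in *10xBulge* (-1.48, limma adjusted p = 0.0356), the opposite direction to its receptor. *Amh*, the anti-Müllerian hormone gene of Sertoli cells, was at 108 and 118 in wild type and 390 and 233 in *10xBulge* (1.41, limma adjusted p = 0.0501).

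Other immediate early genes, a list made after the values of *Nr4a1* were seen, went in both directions. Of 9 tested, 3 were called higher and 1 lower in *10xBulge* against wild type, beside 11.4% and 23.0% of all genes tested. *Fos*, *Egr1* and *Ier2* rose in *10xBulge* over wild type (log2 differences 2.16, 1.62 and 1.31, limma adjusted p = 0.0143, 0.0168 and 0.0525), *Egr3* was lower (-2.16, limma adjusted p = 0.0619), and the other 5 of 9 tested did not pass.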
